A study of Mus musculus with 64 samples.

Results

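The 107 genes described here encode the oxidative phosphorylation machinery of the mouse: the subunits of complexes I to V and the complex I assembly factors that share the Nduf prefix. They were chosen by name alone from 58762 gene identifiers in the deposited count tables, as protein-coding genes whose symbol begins with Nduf, Uqcr, Cox4 to Cox8 or Atp5, the genes Sdha to Sdhd, and the 13 protein genes of the mitochondrial genome. Of the 107, 94 are nuclear: 36 belong to complex I, 8 are complex I assembly factors, 4 belong to complex II, 8 to complex III, 20 to complex IV and 18 to complex V.

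The 64 RNA libraries came from male F1 hybrid mice of 10 to 18 weeks, bred from a C57BL/6J father and a 129sv mother that carried a Ube3a deletion on her paternally inherited chromosome. Angelman syndrome (AS) mice (Ube3a m-/p+) inherited a maternal Ube3a allele without exon 5, and WT littermates inherited the intact one. Because the paternal allele is silent in neurons, AS mice lack UBE3A mainly in neurons, and other cells keep the paternal product. In the acute cohort, the left hippocampus was taken 3 h after a subcutaneous injection of vehicle or of 3 mg/kg corticosterone (CORT), the main glucocorticoid of rodents, from 6 mice per group. In the continuous cohort, hippocampus and liver were taken after 5 days with a cholesterol (vehicle) pellet or a 20 mg CORT pellet under the skin, from 5 mice per group. Each cohort had 4 groups, of both genotypes and both treatments. Bulk tissue cannot separate fewer cells of a type from less RNA per cell.

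Oxidative phosphorylation passes electrons from NADH through complex I, or from succinate through complex II, to coenzyme Q, then through complex III to cytochrome c, and through complex IV to oxygen. Complexes I, III and IV pump protons across the inner mitochondrial membrane, and complex V, the ATP synthase, makes ATP from the return flow. The core hydrophobic subunits of complexes I, III, IV and V are read from the mitochondrial DNA and all other subunits, complex II entire, from nuclear genes, so that each of these complexes but complex II needs both genomes. Glucocorticoids are known to act on energy metabolism in liver and brain.

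A feature of their sequence is shown first for the mitochondrial genes. The mouse nuclear genome holds old copies of mitochondrial DNA, and a read that fits both places equally well is set aside by a counter that keeps only uniquely aligned reads. The first 120 bases of mt-Co3, which encodes cytochrome c oxidase subunit III, are shown beside the same stretch of the transcript Gm28437, a nuclear copy on chromosome 1, because the pair shows no difference between them. The mt-Co3 stretch lies at chrM:8607-8726 on the plus strand and the Gm28437 stretch at chr1:24613852-24613971 on the minus strand of GRCm38.
mt-Co3: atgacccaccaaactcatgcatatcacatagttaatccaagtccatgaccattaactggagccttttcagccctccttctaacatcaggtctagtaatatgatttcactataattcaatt
Gm28437: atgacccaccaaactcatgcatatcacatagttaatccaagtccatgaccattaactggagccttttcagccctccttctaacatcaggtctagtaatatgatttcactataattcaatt
Over the whole gene, 99.9% of the 50-base windows of mt-Co3 also occurred in an annotated nuclear transcript. The share was 100% for mt-Co2, 99.5% for mt-Atp6, 98.8% for mt-Nd4l and 98% for mt-Nd3. It was 62.2% for mt-Nd4 and 51.1% for mt-Co1, 8.19% for mt-Nd2 and 7.61% for mt-Nd5, and 0% for mt-Nd1, mt-Cytb, mt-Nd6 and mt-Atp8.

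In the acute libraries mt-Co1 had 250076 to 338755 reads, mt-Cytb (cytochrome b of complex III) 147845 to 191752 and mt-Nd1 (a complex I core subunit) 108596 to 156853. In the same libraries mt-Co3 had 68 to 154 reads, mt-Co2 59 to 289, mt-Atp6 86 to 180, mt-Nd3 9 to 39 and mt-Nd4l 4 to 20. The nuclear copy Gm28437 had 42 to 157 reads. The authors' tables list 1192813 to 1667098 reads per acute library, 5.29 to 6.93% of all reads, as aligned to more than 1 place. Which genes those reads came from, and so their part in the low counts, was not tested. mt-Nd6 and mt-Atp8 were low with 0% of their windows in annotated nuclear transcripts. Nuclear sequence outside annotated transcripts was not searched, including the stretch of chromosome 1 between the copies of mt-Co2 and mt-Atp6. mt-Nd6, the 1 protein gene read from the opposite strand, had 123 to 580 reads. mt-Atp8, which lies between mt-Co2 and mt-Atp6 and overlaps the latter, had 12 to 141 reads in the acute libraries, and no more than 2 in any library of the continuous cohort. The other 6 genes, mt-Nd1, mt-Nd2, mt-Co1, mt-Nd4, mt-Nd5 and mt-Cytb, carried nearly all mitochondrial reads, and a change in any of the remaining 7 rests on few.

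**Figure D1:**
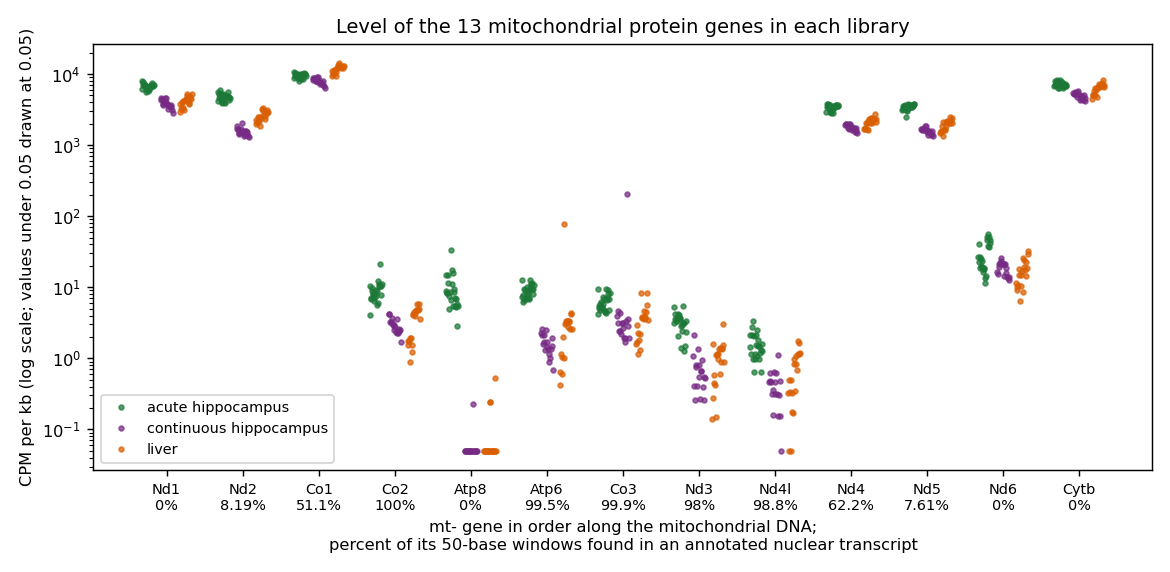
Level of each of the 13 mitochondrial protein genes in genome order in each library, in CPM per kilobase on a log axis, in the acute hippocampus, the continuous hippocampus and the liver, with the share of the gene's 50-base windows found in nuclear transcripts; values under 0.05 are drawn at 0.05. The 6 genes mt-Nd1, mt-Nd2, mt-Co1, mt-Nd4, mt-Nd5 and mt-Cytb had means of 1553 to 11830 CPM per kilobase, and the other 7 lay far lower.

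The libraries had 18612550 to 21783009 reads counted on genes. Levels are given as CPM, reads per 1000000 of the library size after scaling by its trimmed-mean (TMM) factor, so that 3 reads corresponded to 0.136 to 0.16 CPM in the 62 libraries tested. Summed neuronal markers were at 11920 to 17570 CPM in the acute and the 18 kept continuous hippocampal libraries, against 64.41 to 222.6 in liver, and hepatocyte markers at 94920 to 141700 CPM in all livers. The continuous hippocampal libraries H9 and H13 were left out as the study did, H9 with 1893 CPM of thalamic and H13 with 13220 CPM of choroid plexus markers, and with neuronal markers at 5793 and 5366 CPM. Among the members, H9 stood out by 346 reads of Cox6a2 against 19 to 57 in the 18 libraries kept, and H13 by 164 reads of Cox8b against 1 to 27. Summed over all exons, Ube3a was lower in AS than WT liver, at 34.1 ± 4.68 against 50.1 ± 4.93 CPM with vehicle (SD, n = 5). In the acute hippocampus Ube3a was 71.4 ± 6.64 CPM in AS and 74.5 ± 8.87 in WT mice with vehicle (SD, n = 6), and the groups overlapped.

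A gene was tested where it had more than 20 normalized reads in at least 3 replicates of a group: 100 members in the acute cohort (88 nuclear, 12 mitochondrial), 99 in the continuous hippocampus (89 and 10) and 98 in liver (88 and 10). Cox7b2, Cox8b, Cox8c and the shorter identifier named Atp5o passed in no dataset, nor did mt-Nd4l. Log2 differences, their standard errors (SE) and Benjamini-Hochberg adjusted p-values come from edgeR's quasi-likelihood F-test over all genes that passed, and a call means an adjusted p under 0.05.

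Levels per unit length differed widely within each complex, and the complexes were not ranked. In the continuous hippocampus the ATP synthase beta subunit gene Atp5b stood at 566.7 ± 22.27 CPM per kilobase and Atp5a1, the alpha subunit gene, at 341.1 ± 11.76 (SD, n = 18). Core subunits of complex I were lower, with Ndufs1 at 55.19 ± 1.821 and Ndufv1 at 85.75 ± 4.772. The complex II genes Sdha and Sdhb stood at 145.9 ± 4.511 and 85.7 ± 4.984, and the complex III genes Uqcrc1 and Uqcrfs1 at 145.7 ± 6.267 and 87.88 ± 3.473, below the small complex III subunit gene Uqcr11, named after its values were seen, at 279.3 ± 22.24. Cox5a of complex IV was at 231.4 ± 13.64 CPM per kilobase.

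Several complex IV subunits come in isoform pairs of which one is used widely and the other in particular tissues such as heart, skeletal muscle, lung or testis. The widely used isoform dominated in both tissues. In the continuous hippocampus Cox4i1 stood at 658.2 ± 30.55 CPM per kilobase and Cox4i2 at 1.197 ± 0.3247. Cox6a1 stood at 454.1 ± 27.47 and its muscle isoform Cox6a2 at 2.523 ± 0.7056. In liver Cox6a2 had 0 or 1 read in every library. Cox6b1 was at 349.3 ± 28.85 and the testis isoform Cox6b2 at 3.377 ± 1.078 in hippocampus, and at 437.9 ± 36.31 and 4.118 ± 1.789 in liver (n = 20). Cox8a was at 774.9 ± 47.64 and Cox8b at 1.331 ± 0.8902. Cox7a2 and Cox7a2l were at 165.9 ± 9.952 and 103.1 ± 3.508 against 2.281 ± 0.9351 for the muscle isoform Cox7a1. Ndufa4, named for complex I and now placed with complex IV, stood at 339.6 ± 26.08 against 2.683 ± 0.4885 for Ndufa4l2. The 3 genes of the ATP synthase c-ring, Atp5g1, Atp5g2 and Atp5g3, formed an order of 38.13 ± 2.43, 104 ± 5.571 and 311.3 ± 19.08 CPM per kilobase that was the same in the acute hippocampus and in liver. The place of Atp5g1 in it rests on the transcript length used, 4715 bases against 731 for Atp5g2, since Atp5g1 had more reads than Atp5g2 in every library. In each dataset the 3 means per kilobase lay farther apart than the sum of their SDs.

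The summed share of reads on the 13 mitochondrial genes was 3.914 to 5.021% of gene counts in the acute hippocampus, while the nuclear members made up 0.766 to 0.794% in the group means. In the continuous hippocampus the mitochondrial share was 2.828 ± 0.261% and the nuclear share 1.114 ± 0.041% (SD, n = 18). In liver with vehicle the shares were 4.016% and 1.377% in WT mice (means, n = 5). The acute and continuous hippocampus came from separate cohorts, and their values are set side by side only.

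The first comparison asked whether a single CORT injection changed these genes in the WT hippocampus. None of the 100 tested members passed (0 in edgeR and in DESeq2, 4 at an unadjusted p under 0.05), where 1.48% of all 14611 genes did. Of the 88 nuclear members, 68 had a positive log2 difference. The median over all 88 was 0.05, against -0.11 for the 12 mitochondrial genes and -0.0023 for all genes. The nuclear members with the smallest p were Cox6a1, a complex IV subunit gene, at 0.16 (SE 0.06, adjusted p = 0.307) and Atp5g1 at 0.17 (SE 0.08, adjusted p = 0.387). AS against WT mice given vehicle gave 0 calls among the members as well (0 in DESeq2, 6 at an unadjusted p under 0.05), where 0.157% of all genes passed. The smallest p-values there belonged to Atp5c1, the gamma subunit gene of ATP synthase, at -0.13 (SE 0.05, adjusted p = 0.384) and Ndufb10 at -0.15 (SE 0.07, adjusted p = 0.462).

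In AS mice, CORT against vehicle gave 9 calls among the 100 tested members, 4 higher and 5 lower, beside 17.9% of all genes (8.25% higher and 9.62% lower). All 9 calls were lost with a covariate for the mice numbered H17 to H24, which are all 6 AS mice given CORT and 2 AS mice given vehicle, and mt-Nd6 turned from 0.80 to -0.11, so the values that follow are those without it. Complex IV held 5 of the 9: Cox8a fell by 0.39 on the log2 scale (SE 0.10, adjusted p = 0.00956), Cox7c by 0.39 (SE 0.12, adjusted p = 0.0298), Cox5a by 0.23 (SE 0.08, adjusted p = 0.0488) and Cox6a1 by 0.18 (SE 0.06, adjusted p = 0.0377), while the low-level isoform Cox4i2 rose by 0.61 (SE 0.21, adjusted p = 0.0462). The ATP synthase delta subunit gene Atp5d fell by 0.24 (SE 0.07, adjusted p = 0.0161). Among complex I genes the accessory subunits Ndufb2 and Ndufb3 rose by 0.34 (SE 0.09, adjusted p = 0.0106) and 0.34 (SE 0.10, adjusted p = 0.0165). mt-Nd6 rose by 0.80 (SE 0.27, adjusted p = 0.0414), and no gene of complexes II or III or of the assembly factors passed.

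With CORT in both genotypes, AS against WT mice gave 25 calls among the same 100 members, 13 higher and 12 lower. Among all genes 24.9% were called (11.7% higher and 13.2% lower), a share near that of the members. By complex, 7 genes of complex I were higher and 3 lower, 1 of complex II in each direction, 2 of complex IV higher and 5 lower, 2 of complex V lower, and 3 mitochondrial genes higher and 1 lower. The lower nuclear members with the smallest p were Cox6a1 at -0.46 (SE 0.06, adjusted p = 5.68e-05), Atp5d at -0.43 (SE 0.07, adjusted p = 0.00019), Cox8a at -0.54 (SE 0.10, adjusted p = 0.000697), and the complex I genes Ndufc2 at -0.34 (adjusted p = 0.00133) and Ndufab1, the mitochondrial acyl carrier protein, at -0.29 (adjusted p = 0.00164). The higher ones were the complex I accessory genes Ndufb2 at 0.31 (adjusted p = 0.0133), Ndufb8 at 0.45 (adjusted p = 0.017), Ndufb4 at 0.30 (adjusted p = 0.0214) and Ndufb3 at 0.31 (adjusted p = 0.0217), and Cox6c of complex IV at 0.35 (adjusted p = 0.0177). Among mitochondrial genes mt-Nd6 was higher by 1.22 (SE 0.28, adjusted p = 0.00286), mt-Nd5 by 0.22 (adjusted p = 0.0201) and mt-Co2 by 0.60 (adjusted p = 0.045), and mt-Atp8 was lower by 1.19 (adjusted p = 0.0261). With the covariate for H17 to H24, none of the 25 passed and 13 changed sign, among them Ndufb8, Ndufb4, Ndufb3, Cox6c, mt-Co2 and mt-Nd6, and the complex I median moved from 0.08 to -0.18. The summed endothelium markers were at 111.6 to 150.2 CPM in WT and 101 to 114.8 in AS mice with CORT, with overlap. The 6 muscle markers were at 24.54 to 31.21 and 32.41 to 41.21, without overlap. The muscle sum came mostly from Actn2, with the muscle creatine kinase gene Ckm at 0 to 0.04944 CPM, and the part of these markers in the calls was not tested. Without mouse H8, the WT CORT mouse with the highest nuclear share (0.9101%), mt-Nd5 and mt-Co2 no longer passed and the other 23 calls held. That fit called 34 members. Its share of all genes is not given here, and the 24.9% above belongs to the fit with H8.

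The difference between the CORT effects in AS and WT mice, the interaction, passed for 4 members, all negative, beside 4.49% of all genes. They were Cox6a1 at -0.34 (SE 0.09, adjusted p = 0.0339), Cox8a at -0.54 (SE 0.14, adjusted p = 0.0373), Atp5d at -0.34 (SE 0.09, adjusted p = 0.0411) and Atp5g1 at -0.38 (SE 0.11, adjusted p = 0.045). None of the 4 calls held with the covariate for H17 to H24. Nor did any hold after trends with GC content and transcript length were removed, with Cox6a1 at -0.27 (adjusted p = 0.0951), Cox8a at -0.48 (adjusted p = 0.0966), Atp5d at -0.18 (adjusted p = 0.14) and Atp5g1 at -0.44 (adjusted p = 0.108). On GRCm38, Cox6a1 lies on chromosome 5 at 115345642 to 115348981, Cox8a on chromosome 19 at 7215153 to 7217616, Atp5d on chromosome 10 at 80138632 to 80145818 and Atp5g1 on chromosome 11 at 96068852 to 96075670. Exons of Atp5d overlap those of Cbarp on the opposite strand, so its reads are certain only if the counting used strand, which is not given in the sources used here. The same holds for Cox4i1, Cox5a, Cox6a2, Cox6c, Ndufa2, Ndufa4l2, Ndufab1, Ndufb6, Ndufs1, Ndufaf3, Uqcrb, Atp5a1, mt-Nd5 and mt-Nd6, which also overlap genes on the opposite strand, while Ndufb8 and Ndufb9 overlap genes on their own strand and are uncertain either way.

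The levels of these 4 genes differed between mice of 1 group. Cox6a1 in WT mice ranged from 313.2 to 371.7 CPM with vehicle (median 332.3) and from 331.4 to 433.4 with CORT (median 371.8). In AS mice it ranged from 274.4 to 352.9 with vehicle (median 301.6) and from 261.5 to 282.4 with CORT (median 268.6). The AS mice given CORT lay below all WT mice, but overlapped the AS mice given vehicle, of which H17 had 274.4 CPM and H18 299.7. In WT mice Cox8a ranged from 356.6 to 470.2 CPM under vehicle (median 390.3) and from 352.1 to 513 under CORT (median 447.7). In AS mice its 6 vehicle values fell apart, with H17 at 309.3 and H18 at 318.3 and the other 4 mice at 410.5 to 505.7, and the CORT values were 292.2 to 317.8 (median 308.1). H17 and H18 thus stood with the CORT mice and not with the other AS mice given vehicle. Atp5d ranged from 221 to 264.9 CPM (median 237.6) in the WT vehicle group, from 224.8 to 291.4 (median 253.5) in the WT CORT group, from 198.4 to 252.7 (median 223.7) in the AS vehicle group and from 174.9 to 202.1 (median 196.7) in the AS CORT group. Atp5g1 ranged in the same order of groups from 99.98 to 120.8 CPM (median 111.4), 101.6 to 147.9 (median 126.5), 98.32 to 126.8 (median 112.8) and 94.15 to 105.7 (median 95.88). For both genes the AS CORT mice overlapped the AS vehicle mice, and for Atp5d they lay below all WT mice.

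**Figure D2:**
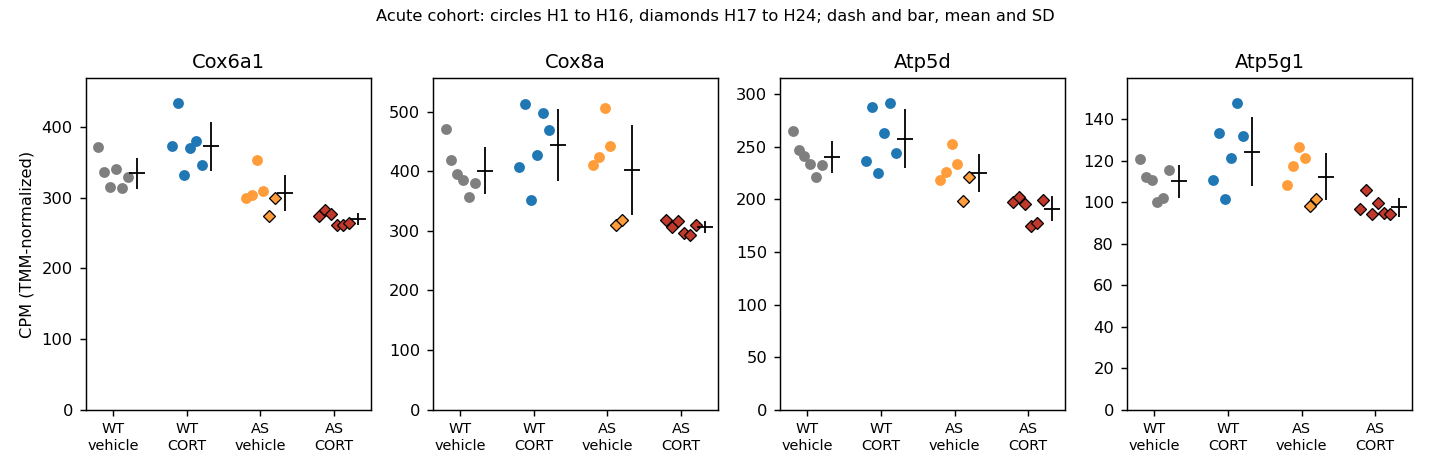
CPM of Cox6a1, Cox8a, Atp5d and Atp5g1 in each of the 24 acute mice by group, with circles for H1 to H16, diamonds for H17 to H24, and the group mean with its SD. For Cox8a the 2 diamonds among AS mice given vehicle, at 309.3 and 318.3, lie with the AS CORT mice at 292.2 to 317.8 and apart from the 4 circles at 410.5 to 505.7.

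All 6 AS mice given CORT bear the numbers H19 to H24, and H17 and H18 are the other acute mice numbered above H16. The labels do not say what the numbers mean. The authors' tables list 1877 to 2237 reads of too low alignment quality in H1 to H16 and 2640 to 2850 in H17 to H24, without overlap. Within AS vehicle mice, H17 and H18 against H13 to H16 gave 28 calls among the 100 members, 24 higher and 4 lower, beside 8.23% of all genes. Complex I held 11 of the 28, 10 of them higher. The member median was 0.18 and that of all genes -0.013. mt-Nd6 differed by 1.76 (SE 0.21, adjusted p = 2.78e-05), from 6.004 to 9.448 CPM in H13 to H16 to 23.76 in H17 and 26.69 in H18, against 18.88 to 29.08 in the AS CORT mice. Ndufb9, a complex I accessory subunit gene, differed by 0.84 (SE 0.13, adjusted p = 0.000384), and Cox8a by -0.51 (SE 0.12, adjusted p = 0.00849).

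CORT in AS mice was therefore computed against each set of controls. Against H17 and H18 alone, 0 of 100 members passed (2 at an unadjusted p under 0.05), beside 1.03% of all genes, with a member median of -0.048. Against H13 to H16 alone, 43 passed, 33 higher and 10 lower, beside 31.2% of all genes. The 9 genes called with all 6 vehicle mice kept unequal parts of their difference against H17 and H18. Cox8a was at -0.03 (SE 0.11) against H17 and H18, Ndufb3 at 0.04 and mt-Nd6 at -0.11 (SE 0.19), while Ndufb2 at 0.31 (SE 0.13), Cox4i2 at 0.36 and Atp5d at -0.13 (SE 0.09) kept more of their difference without passing. With H17 to H24 as a covariate in the fit of all 24 mice, AS against WT mice with CORT gave 0 member calls (20 at an unadjusted p under 0.05), with 13 of the 25 differences turned in sign, and the interaction gave 0. In that fit the covariate rests on the 6 AS vehicle mice, since no other group holds mice from both number ranges. The acute AS CORT group and the number range above H16 thus cannot be told apart beyond what H17 and H18 give, and the part of that range in the calls of Cox6a1, Cox8a, Atp5d and Atp5g1 cannot be told apart from CORT.

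**Figure D3:**
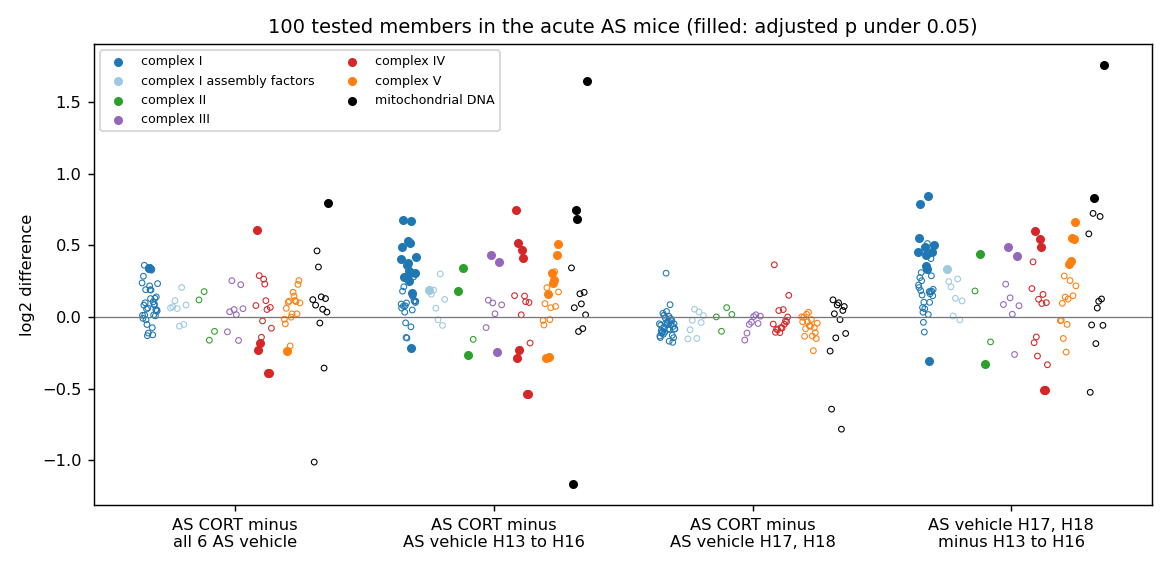
Log2 differences of the 100 tested members by complex in AS mice given CORT minus all 6 vehicle mice, minus H13 to H16 and minus H17 and H18, and of H17 and H18 minus H13 to H16; filled points had an adjusted p under 0.05. The counts of filled points are 9, 43, 0 and 28.

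Cox7c, a small complex IV subunit gene, spanned 65.65 to 112.8 CPM with vehicle (median 86.69) and 60.78 to 73.74 with CORT (median 65.18), and Cox5a spanned 68.22 to 98.49 (median 76.29) and 60.16 to 72.89 (median 67.89). In both genes the lowest vehicle value belonged to H17. Ndufb3 spanned 17.82 to 30.85 (median 22.8) with vehicle, where H17 and H18 were at 28.17 and 30.85, and 28.28 to 32.5 (median 30.49) with CORT. Ndufb2 was the exception, with 8.812 to 10.52 (median 9.938) for vehicle, H17 and H18 included, and 11.04 to 13.71 (median 12.57) for CORT, and the groups did not overlap. WT mice covered 7.773 to 12.34 CPM of Ndufb2. Exons of Ndufb2 overlap those of Gm42420 on the same strand and of Braf and Gm16272 on the opposite strand, so its reads are uncertain here and between the tissues. Cox4i2 spanned 0.5357 to 0.9697 CPM (median 0.8312) with vehicle and 0.9054 to 1.402 (median 1.19) with CORT. The summed mitochondrial share was 4.449 ± 0.294% in AS mice with vehicle and 4.71 ± 0.089% with CORT, against 4.669 ± 0.333% and 4.269 ± 0.285% in WT mice (SD, n = 6). The summed oligodendrocyte markers spanned 2316 to 4568 CPM with vehicle and 1576 to 3143 with CORT in AS mice. The 6 thalamus markers summed to 76.8 to 89.28 CPM with vehicle and 91.69 to 101.8 with CORT, without overlap, and the 4 endothelium markers to 113.7 to 139.1 and 101 to 114.8. None of the markers in these 3 lists was at 0 throughout, and their part in these calls was not tested.

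In the hippocampus after 5 days of CORT, almost no member passed. In WT mice 0 of the 89 nuclear members were called (5 at an unadjusted p under 0.05) and 1 of the 10 mitochondrial ones, mt-Co3, beside 2.92% of all 14949 genes. The mt-Co3 call of -4.37 (SE 1.02, adjusted p = 0.024) came from 1 control mouse, since H17 had 3592 reads (163.2 CPM) and the other 17 libraries kept 29 to 79. Without H17 it was -0.15 (adjusted p = 0.904). In AS mice 0 of 99 members passed (0 in DESeq2, 1 at an unadjusted p under 0.05), beside 3.77% of all genes. AS and WT mice differed in 0 members with vehicle (1 at an unadjusted p under 0.05), beside 0.0134% of all genes, and in 0 with CORT (4 at an unadjusted p under 0.05), beside 0.0401%. DESeq2 also gave 0 in each of these. The interaction gave 0 calls (3 at an unadjusted p under 0.05), beside 0.0% of all genes. Nuclear members spanned -0.71 to 0.21 on the log2 scale in WT mice with a median of -0.0082.

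The nuclear members with the smallest p for CORT were 2 low-level complex IV isoforms. Cox6b2 was at -0.71 with CORT in WT mice (SE 0.22, adjusted p = 0.104) and -0.42 in AS mice (SE 0.22, adjusted p = 0.391). Its levels were 2.037, 1.871, 2.277 and 3.407 CPM in the WT vehicle mice and 1.26, 1.359, 1.718, 1.397 and 1.585 CPM with CORT, without overlap. In AS mice they were 1.911, 2.767, 1.658 and 3.294 CPM with vehicle and 1.892, 1.57, 1.405, 2.371 and 1.776 CPM with CORT, with overlap. Cox4i2, the isoform known to respond to low oxygen, was at -0.56 in WT mice (SE 0.22, adjusted p = 0.207) and -0.59 in AS mice (SE 0.21, adjusted p = 0.157). It stood at 0.8632 to 1.203 CPM with vehicle and 0.513 to 0.933 with CORT in WT mice, and at 0.9322 to 1.244 and 0.4257 to 0.9038 in AS mice. The AS groups did not overlap and the WT groups did, at 9 to 27 reads per library. Astrocyte markers (5 genes) summed to 1175 to 1365 CPM with vehicle and 885.5 to 1052 with CORT in WT mice, and to 1070 to 1163 and 899.3 to 1051 in AS mice. Microglia markers (4 genes) summed to 219.2 to 243.7 and 181.9 to 204.3 CPM in WT and to 200.8 to 225 and 175.7 to 198.4 in AS mice. None of these pairs of ranges overlapped, none of the markers was at 0 throughout, and their part in the differences of Cox6b2 and Cox4i2 was not tested. None of the core subunit genes Ndufs1, Ndufv1, Sdha, Sdhb, Uqcrc1, Uqcrfs1, Cox5a, Atp5a1 and Atp5b passed for CORT, genotype or their interaction within the hippocampus of the continuous cohort.

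In liver, where glucocorticoids control glucose and lipid metabolism, CORT changed a small set of members in both genotypes. In WT mice 6 of 98 members (6.12%) passed, 5 higher and 1 lower, beside 18.6% of all 12273 genes (8.73% higher and 9.9% lower). In AS mice 11 (11.2%) passed, 9 higher and 2 lower, beside 27.5% of all genes (12.6% higher and 15% lower). Both counts changed without the filter and with single livers left out. The AS count also changed with GC content and transcript length trends removed, as given in the section on processing.  Cox6b2 was lower with CORT in both genotypes, and the complex I genes Ndufa8 and Ndufa1 and the assembly factor Ndufaf2 were higher in both. The comparisons in the 2 genotypes share no mice.

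Cox6b2 lies on chromosome 7 at 4751792 to 4753094 of GRCm38. With vehicle it stood at 2.791, 3.47, 2.555, 4.677 and 3.904 CPM in WT livers, and with CORT at 1.584, 1.747, 1.295, 1.382 and 1.225 CPM, with every CORT liver below every vehicle liver. The log2 difference was -1.26 (SE 0.21, adjusted p = 0.000296). In AS livers it was at 2.117, 2.761, 4.33, 2.897 and 2.763 CPM with vehicle and at 2.356, 1.558, 1.275, 1.455 and 2.033 CPM with CORT, a difference of -0.78 (SE 0.21, adjusted p = 0.00963), where the highest CORT liver lay above the lowest vehicle liver. These values rest on 24 to 89 reads per library. The widely used isoform Cox6b1 was not called in either genotype.

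Ndufa8, an accessory subunit gene of complex I on chromosome 2 at 36036326 to 36049406, stood at 88.98, 84.53, 83.84, 77.3 and 71.34 CPM in WT livers with vehicle and 110.2, 104.9, 96.42, 102 and 111.9 with CORT. In AS livers it stood at 84.19, 94.34, 81.63, 78.36 and 78.15 CPM with vehicle and 139.1, 105, 107, 96.06 and 100.5 with CORT. In both genotypes every CORT liver was above every vehicle liver. It rose by 0.37 in WT (SE 0.09, adjusted p = 0.00533) and by 0.39 in AS livers (SE 0.09, adjusted p = 0.00237). Ndufa1, a small membrane subunit gene of complex I on the X chromosome at 37187588 to 37191163, rose by 0.33 (SE 0.08, adjusted p = 0.00589) and 0.32 (SE 0.08, adjusted p = 0.00507). Its WT values were 61.31 to 70.05 CPM with vehicle and 76.65 to 90.27 with CORT. The AS values were 63.16 to 75.71 and 69.57 to 95.04, which overlap in 1 CORT liver, L8 at 69.57.

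Ndufaf2, which helps build complex I, rose by 0.26 in WT (SE 0.09, adjusted p = 0.0462) and 0.35 in AS livers (SE 0.09, adjusted p = 0.00635). It stood at 10.57 to 11.67 CPM with vehicle and 10.7 to 15.26 with CORT in WT, and at 9.722 to 11.56 and 12.31 to 16.1 in AS livers, where the groups did not overlap. Its exons overlap those of B230220B15Rik on the opposite strand. In WT livers alone, Atp5d rose by 0.21 (SE 0.07, adjusted p = 0.0407), from 234.4 to 274.9 CPM with vehicle to 294.1 to 302.2 with CORT, and Ndufa4 by 0.20 (SE 0.07, adjusted p = 0.0473), from 264 to 287.4 to 290.3 to 339.3. In AS livers alone, 4 more complex I genes rose: Ndufb6 by 0.24 (SE 0.07, adjusted p = 0.0103), Ndufa7 by 0.24 (adjusted p = 0.0111), Ndufb7 by 0.20 (adjusted p = 0.0343) and Ndufv2, a core iron-sulphur subunit, by 0.16 (adjusted p = 0.0393). Atp5e of complex V rose by 0.24 (adjusted p = 0.0455). Ndufaf5, an assembly factor that modifies a complex I subunit, fell by 0.35 (SE 0.11, adjusted p = 0.0202), from 4.848 to 5.824 CPM to 3.895 to 4.416. That a gene passed in 1 genotype only does not show a difference between them, as the interaction gave 0 calls among members (0 in DESeq2, 1 at an unadjusted p under 0.05), beside 0.0% of all genes.

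**Figure D4:**
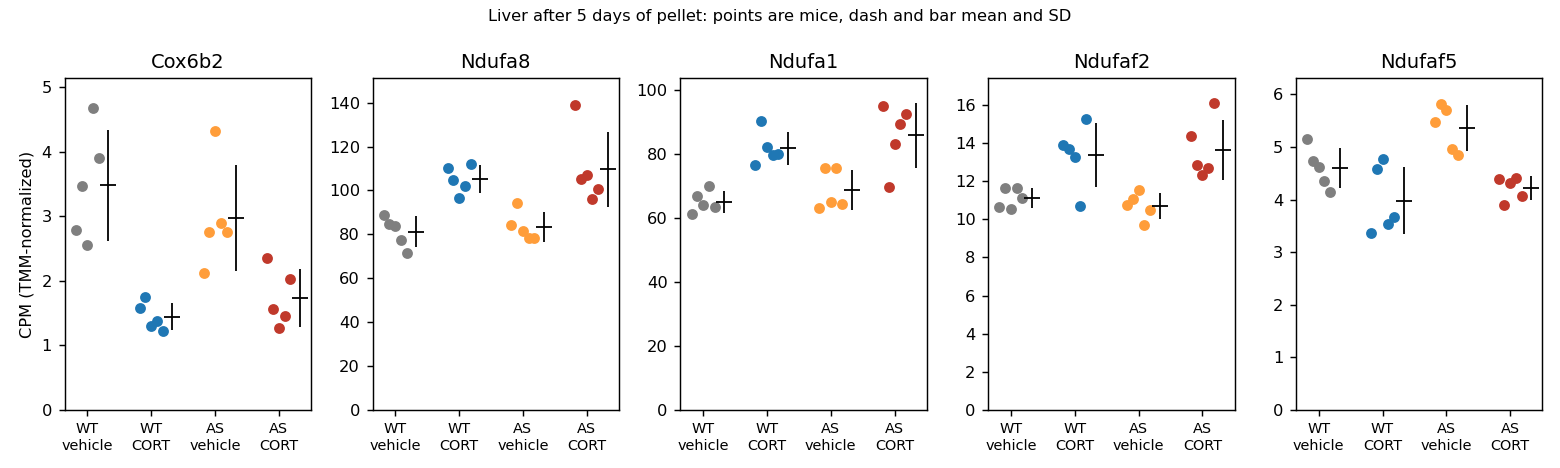
CPM of Cox6b2, Ndufa8, Ndufa1, Ndufaf2 and Ndufaf5 in each of the 20 livers by genotype and treatment, with the group mean and SD. The CORT livers of both genotypes lie lower for Cox6b2, with WT at 1.225 to 1.747 CPM, and higher for Ndufa8, with WT at 96.42 to 111.9.

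By complex, 34 of the 36 complex I genes had a positive log2 difference with CORT in AS livers and 6 passed, with a median of 0.10 against -0.0032 for all genes. In WT livers 24 of 36 were positive and 2 passed, with a median of 0.05. Over all 88 nuclear members, 71 were positive in AS livers (median 0.07) and 48 in WT livers (median 0.02). Complexes II and III gave no call in either genotype. The 10 mitochondrial genes had medians of -0.02 in WT and -0.12 in AS livers. The 1 mitochondrial call, mt-Atp6 in AS livers at 2.62 (SE 0.88, adjusted p = 0.0328), came from liver L7, which had 1021 reads (53.47 CPM) where the other 19 had 6 to 59, and was 0.02 without it (adjusted p = 0.984). The 6 mitochondrial genes with most reads gave no call in either genotype.

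Cox6b2, Ndufa8 and Ndufa1 passed in both genotypes when each of the 10 livers of a comparison was left out in turn. So did Ndufaf2, Ndufb6 and Ndufa7 in AS livers. The other calls were lost with single livers. In WT livers Ndufaf2 passed in 1 of 10 such fits, and Atp5d and Ndufa4 each in 2 of 10. In AS livers Ndufv2 passed in 3 of 10, Atp5e and mt-Atp6 each in 4 of 10, Ndufb7 in 6 of 10 and Ndufaf5 in 8 of 10, the last lost without L8 or L9. Livers L1 to L8 had a lower ratio of mitochondrial to nuclear member reads (2.396 ± 0.243) than L9 to L20 (3.161 ± 0.269), and mt-Co2 had 12 to 27 reads in the first and 48 to 77 in the second. With that division as a covariate, Cox6b2 was at -1.27 and -0.74, Ndufa8 at 0.41 and 0.36, and Ndufa1 at 0.32 and 0.33 in WT and AS livers, all still past the threshold. CORT livers also held less RNA of blood and resident macrophage markers. The 5 Kupffer cell markers summed to 107.2 to 196.2 CPM with vehicle and 52.92 to 79.31 with CORT, and the 5 blood markers to 243.1 to 573.5 and 124.4 to 327.9, with none of these markers at 0 throughout. Their part in the member calls was not tested.

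Between the genotypes no member passed in liver. AS against WT livers gave 0 calls with vehicle (0 in DESeq2, 2 at an unadjusted p under 0.05), beside 0.0163% of all genes, led by Atp5mpl at 0.17 (SE 0.07, adjusted p = 0.439) and Ndufa2 at 0.14 (SE 0.07, adjusted p = 0.464). With CORT it gave 0 calls (0 in DESeq2, 8 at an unadjusted p under 0.05), beside 0.277%, led by Ndufb6 at 0.22 (SE 0.07, adjusted p = 0.25) and Sdhb at 0.19 (SE 0.08, adjusted p = 0.482). All 36 complex I genes had a positive log2 difference in the latter comparison, with a median of 0.09 against 0.0009 for all genes. This was not particular to complex I, since 82 of the 88 nuclear members were positive, with a median of 0.08. The medians of complexes II, III, IV and V were 0.088, 0.087, 0.088 and 0.077.

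The last comparison set liver against hippocampus in the vehicle mice of the continuous cohort, both genotypes together. Both tissues came from the same mice, which this fit treats as separate animals. Here 95 of 99 members differed between liver and hippocampus, 90 of them higher in liver and 5 lower, beside 93.1% of all 15937 genes (43.5% higher and 49.6% lower). The member median was 1.12 and that of all genes -0.16. Complex II, the entry point for succinate and also an enzyme of the citric acid cycle, had the largest median, 1.96, followed by complex III at 1.36, complex V at 1.22, the mitochondrial genes at 1.17, complex I at 0.95, complex IV at 0.90 and the complex I assembly factors at 0.63. The order of these medians was not tested. Sdhd, a membrane anchor of complex II, was the top member at 2.46 (SE 0.04, adjusted p = 8.72e-36), followed by the complex III gene Uqcrq at 2.34 (SE 0.06), Sdhb at 2.01 (SE 0.06), Uqcrb at 1.93 (SE 0.05) and Sdhc at 1.91 (SE 0.04).

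The members lower in liver were Ndufaf5 at -1.56 (SE 0.06), Ndufb2 at -1.54 (SE 0.10), Atp5s at -0.85 (SE 0.08), Ndufaf3 at -0.60 (SE 0.05) and Cox6a2, whose liver reads of 0 or 1 lie under the 3-read floor, so no fold is given. Cox8a at -0.02 (SE 0.05), Ndufaf7 at -0.0058 (SE 0.04), Ndufa4l2 at 0.10 (SE 0.15) and mt-Co3 did not pass. The 6 mitochondrial genes with most reads were higher in liver by 1.03 (SE 0.12) for mt-Nd1 to 1.71 (SE 0.11) for mt-Nd2. The nuclear median was 1.09 and the mitochondrial median 1.17 with this scaling.

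The size of this difference, and its sign for some members, depended on the scaling between the tissues. With plain library sizes in place of TMM factors the median of all genes moved from -0.16 to -1.01. Under these sizes 57 members were higher and 22 lower, beside 27.5% of all genes higher and 65.9% lower. Cox6a1 then turned from 0.62 to -0.23 and Cox8a stood at -0.87. The 4 complex II genes and the 8 complex III genes were called higher in liver under both scalings, with medians of 1.10 and 0.50 under plain library sizes. Complex I then had 18 of 36 genes higher and 10 lower, with a median of 0.10, and the mitochondrial genes 5 of 10 higher and 1 lower, with a median of 0.33. After trends with GC content and transcript length were removed, all 4 complex II genes and 7 of 8 complex III genes were still called higher, with medians of 1.76 and 0.78, while complex IV had 3 genes higher and 8 lower. Complex I had 18 higher and 11 lower, with a median of 0.17, and the mitochondrial genes 4 higher and 3 lower, with a median of 0.017. The median of all genes was 0.26 in that setting, with 51.4% higher and 42.1% lower. The medians of complex I, the mitochondrial genes, complex IV (-0.13) and the assembly factors (-0.056) lay below it. Those of complexes II, III and V (0.52 for V) lay above it. The 5 genes lower in liver kept that direction and call under all of these settings.

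**Figure D5:**
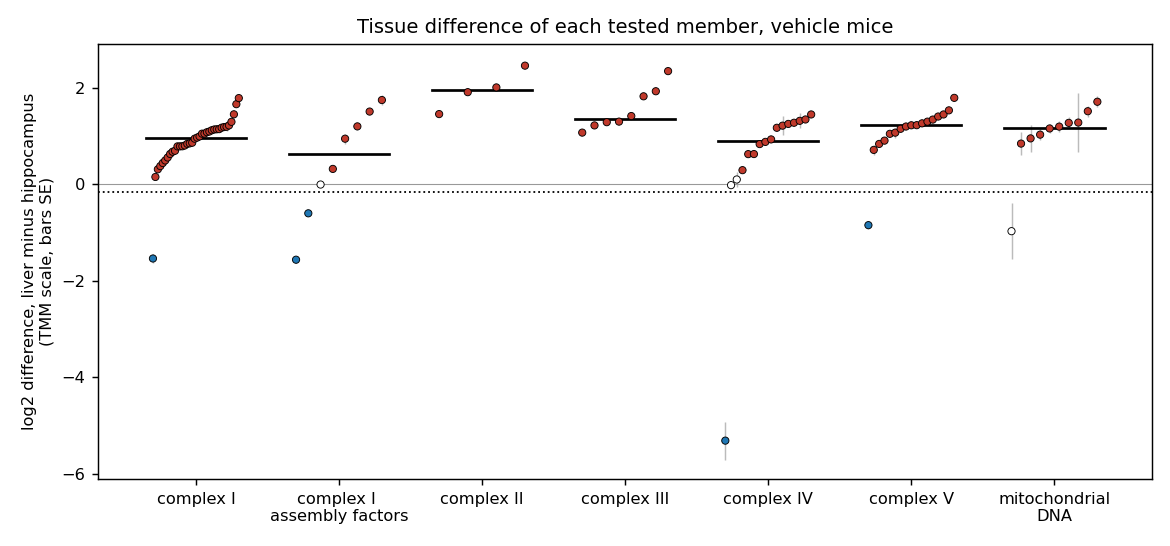
Log2 difference of each of the 99 tested members in liver minus hippocampus of vehicle mice by complex, with its SE, the median of each group as a bar and the median of all genes (-0.16) as a dotted line. Complex II sits highest, with a median of 1.96, and Cox6a2, whose fitted value depends on the prior count, lowest.

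Related genes outside the complexes were counted from lists chosen by function. In acute AS against WT mice with CORT, 1 of 7 electron carrier genes was higher and 2 lower, 0 and 2 of 13 coenzyme Q genes, 4 and 4 of 37 other assembly factors, 2 and 2 of 26 genes of mitochondrial DNA expression, 3 and 4 of 17 biogenesis regulators, and 3 and 3 of 17 citric acid cycle genes, beside 11.7% of all genes higher and 13.2% lower. Named examples are Cyc1, cytochrome c1 of complex III, at -0.27 (adjusted p = 0.0091), Tfam, which packages and transcribes mitochondrial DNA, at 0.26 (adjusted p = 0.0107), Esrra, a receptor that drives energy genes, at -0.36 (adjusted p = 0.000793) and Coq10a at -0.36 (adjusted p = 0.000854). These calls carry the same limit of H17 to H24. In WT mice given acute CORT none of these lists had a call, beside 1.48% of all genes, and in the continuous hippocampus 1 did (2.92% of all genes in WT and 3.77% in AS mice), the complex I assembly factor Tmem126b in WT mice at 0.19 (SE 0.05, adjusted p = 0.0422).

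In liver with CORT the lists gave 0 calls higher and 0 lower of 7 carriers in either genotype. In WT livers, 0 and 1 of 13 coenzyme Q genes, 2 and 0 of 38 assembly factors, 1 and 0 of 26 mitochondrial DNA expression genes, 0 and 2 of 17 biogenesis regulators and 1 and 0 of 17 citric acid cycle genes passed. In AS livers the same lists had 3 and 1, 1 and 1, 4 and 0, 0 and 0, and 4 and 1. Among all genes, 8.73% were higher and 9.9% lower in WT and 12.6% and 15% in AS livers. Coa6, which helps load copper into complex IV, rose by 0.78 in WT (SE 0.15, adjusted p = 0.000758) and 1.07 in AS livers (SE 0.15, adjusted p = 2.2e-05). Pdha1, the catalytic subunit of pyruvate dehydrogenase, rose by 0.31 (SE 0.07, adjusted p = 0.00306) and 0.44 (SE 0.07, adjusted p = 8.3e-05), and Hsd17b10, part of the mitochondrial RNase P, by 0.46 (SE 0.10, adjusted p = 0.00262) and 0.57 (SE 0.10, adjusted p = 0.000232). The regulators Ppara and Ppargc1b fell by 0.50 and 0.81 in WT livers (adjusted p = 0.0213 and 0.0456). Between the tissues, 7 of 7 carriers, 10 of 13 coenzyme Q genes, 32 of 38 assembly factors, 23 of 26 mitochondrial DNA expression genes, 11 of 17 biogenesis regulators and 11 of 17 citric acid cycle genes were higher in liver, and 0, 2, 6, 2, 3 and 3 lower, beside 43.5% of all genes higher and 49.6% lower. These counts also depended on the scaling. With plain library sizes, 5, 4, 14, 15, 5 and 5 genes of the same lists were higher and 1, 7, 21, 7, 10 and 10 lower, beside 27.5% and 65.9% of all genes.

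The nuclear members were also compared for letters in their promoters, since nuclear respiratory factor NRF1, ETS-family factors, YY1 and Sp1 are known regulators of respiratory genes. RefSeq windows on GRCm38.p6 of 250 bases before to 50 after the start matched 76 nuclear member symbols, with 82 windows, and 17 symbols had none. The window of Atp5o was counted once for each of the identifiers of that name. The 9 letters GCGCATGCG, an NRF1-like motif searched on both strands, occurred in 12.2% of member windows, in 1.75% of all 32851 windows and in 3.33% of the 13792 windows of genes tested in the acute cohort. CCGGAAG, ETS-like, occurred in 22%, 8.86% and 15.8%, AAGATGG, YY1-like, in 14.6%, 6.34% and 6.76%, and GGGCGG, Sp1-like, in 43.9%, 35.7% and 61.7%. Median GC content was 58.0% in member windows and 61.0% in those of genes tested in the acute cohort. The promoters of Cox6a1 and Ndufa8, the members with the smallest adjusted p in the acute comparison of the genotypes and in AS livers with CORT, are shown as examples chosen after those values were seen. Capitals mark the motifs, on either strand. Both are written 5′ to 3′ in the direction of the gene, Cox6a1 from chr5:115348959-115349208 and Ndufa8 from chr2:36049339-36049588, each on the minus strand and ending 1 base before the start.
Cox6a1: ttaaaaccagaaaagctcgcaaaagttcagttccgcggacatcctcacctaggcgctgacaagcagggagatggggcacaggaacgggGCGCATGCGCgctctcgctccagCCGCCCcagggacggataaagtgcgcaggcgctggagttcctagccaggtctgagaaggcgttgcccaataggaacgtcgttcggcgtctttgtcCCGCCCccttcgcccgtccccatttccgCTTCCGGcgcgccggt
Ndufa8: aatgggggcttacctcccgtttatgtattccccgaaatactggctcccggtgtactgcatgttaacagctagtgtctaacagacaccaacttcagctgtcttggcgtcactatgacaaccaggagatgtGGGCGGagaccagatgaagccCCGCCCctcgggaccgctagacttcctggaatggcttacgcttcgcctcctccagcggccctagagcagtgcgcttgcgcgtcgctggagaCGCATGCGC
The NRF1-like letters lie 162 bases before the start in Cox6a1, overlapping a second match on the opposite strand, and 9 bases before it on the opposite strand in Ndufa8. Cox6a1 also holds an ETS-like match 16 bases before the start and Sp1-like matches at 139 and 44 bases, and Ndufa8 Sp1-like matches at 121 and 100 bases. A match is a description of the letters in the window and was not tied to the expression values.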

How the data were processed

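RNA-seq libraries of hippocampus and liver were analysed from gene count tables. Per the submitters' processing notes and the study's methods, the authors ran the BioWDL pipeline, with FastQC and MultiQC, aligned stranded mRNA read pairs to mm10 with STAR, and deposited raw counts per gene from HTSeq-count. The study's methods state the pipeline's version. The versions of the single tools, the annotation release and the strand setting of the counting are not given in the sources used here. Reads on no gene (13 to 15.9% in acute, 11.7 to 23.3% in continuous libraries) were left out of library sizes. Depth, 18612550 to 21783009 counted reads per library, limits low-level members to a floor of 3 reads, for counting error only.

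Gene classes and coordinates came from GENCODE M21 on GRCm38. Counts were fitted per dataset with edgeR 4.0.16 (R 4.3.3): TMM factors, 1 coefficient per group, quasi-likelihood F-tests, Benjamini-Hochberg adjustment over all genes that reached, in 3 or more mice of some group, over 20 counts scaled by median-of-ratios factors. The tissue fit held 38 libraries. SE is the log2 difference divided by the root of F. Alternatives were DESeq2 1.42.0 Wald tests, DESeq2 size factors, no filter, removal of GC content and transcript length trends, library sizes without mitochondrial rows or without TMM, number ranges as covariates, all 20 hippocampal libraries, single libraries left out and a replicate block. H9 and H13 were excluded as in the study. Scripts were tested on simulated counts.

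Named genes were the 13 mitochondrial protein genes, fixed isoform sets, 9 core subunits and, per comparison, the 5 nuclear members of smallest p in each direction, or 2 where none passed; others are named for the count they belong to. Members and lists were chosen with earlier results of these data known. The labels number the mice but do not state that samples of a group were prepared independently, so p-values measure the spread between these samples. Per the study's methods both tissues of the continuous cohort came from the same mice, and all 20 numbers carry 1 genotype and treatment in both. The deviations of same-numbered libraries correlated at -0.0376 to 0.0421, and the tissue fit has no mouse term, with mouse number as a block as an alternative. No 2 libraries were identical.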

Additional observations from a re-analysis of the deposited data

Results flagged for a closer look

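Single libraries stood far from the rest of their group for some members. In the continuous hippocampus, WT vehicle mouse H17 had 163.2 CPM of mt-Co3 where the next was 3.101, and AS CORT mouse H7 was lowest for mt-Co3 at 1.703 (next 2.474) and for Cox4i2 at 0.4257 (next 0.7903). In liver, L7 of the AS CORT group was highest for mt-Atp6 at 53.47 CPM (next 2.942) and for Ndufa8 at 139.1 (next 107.0). L9 of the AS vehicle group was highest for Atp5d at 332.0 (next 274.5), and L2 of the same group lowest for mt-Co2 at 1.203 (next 2.912). L2 is the 1 AS vehicle liver among L1 to L8, which all had 12 to 27 reads of mt-Co2 against 48 to 77 in L9 to L20. In the acute cohort, H1 of the WT vehicle group was highest for Cox5a at 91.2 CPM (next 75.91) and for Cox7c at 114.7 (next 83.21), H15 of the AS vehicle group highest for Cox5a at 98.49 (next 77.57), and H11 of the WT CORT group highest for mt-Atp8 at 6.797 (next 2.301). Over all members such distances occurred in 33 of 428 acute groups of values (7.71%), 25 of 428 in the continuous hippocampus (5.84%) and 27 of 428 in liver (6.31%), where chance gives about 1 in 20.

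The effect of acute CORT differed between AS and WT mice by a tested interaction (edgeR, 6 mice per group) for Cox8a at -0.5376, Atp5g1 at -0.3767, Cox6a1 at -0.3396 and Atp5d at -0.3385 on the log2 scale. None of the 4 passed with H17 to H24 as a covariate, nor after removal of GC content and transcript length trends.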

How the results depend on the processing

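Of 235 recomputed counts of member calls, 207 stayed within 1.5 times the main count and 28 did not. For CORT in acute AS mice the 9 calls became 14 after removal of GC content and transcript length trends (8 shared), 0 with H17 to H24 as a covariate, 0 against H17 and H18 alone and 43 against H13 to H16 alone. The covariate gave 1 call for AS against WT mice with vehicle (mt-Nd6, lower) and 0 with CORT. It turned mt-Nd6 to -0.115 for CORT in AS mice (also -0.115 against H17 and H18 alone), and for AS against WT mice with CORT Cox5b to -0.283, Cox6c to -0.189, Cox7c to 0.0607, Ndufa1 to -0.166, Ndufa12 to -0.231, Ndufb3 to -0.18, Ndufb4 to -0.128, Ndufb8 to -0.0664, Ndufb9 to -0.432, Sdha to -0.0284, Sdhc to 0.0527, mt-Co2 to -0.123 and mt-Nd6 to -0.544. The 4 interaction calls became 9 with DESeq2, 2 without the filter, 0 with GC and length trends removed, 0 with the covariate and 7 without H8. The continuous hippocampal call became 0 with DESeq2 and 0 with all 20 libraries, and leaving out single mice gave 0 to 1 (0 without H3, H12, H17 or H20). In liver without the filter 3 members passed in WT and 7 in AS mice, 19 passed in AS mice with GC and length trends removed, and leaving out single livers gave 3 to 7 and 7 to 17. The cause of these shifts was not tested.

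With mouse number as a replicate block, 93 members were called between the tissues against 95, the calls of Ndufa12 (adjusted p = 0.0982) and mt-Atp6 (adjusted p = 0.0932) being lost and no other member's call changing. Low counts limit what can be said of the 7 mitochondrial genes with few reads and of the low-level isoforms Cox4i2, Cox6a2, Cox6b2, Cox7a1 and Cox8b. Why the mitochondrial counts were low was not tested.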
